A study of Mus musculus with 44 samples.

Results

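The 10 genes described here are Atf4, Ddit3, Xbp1, Trib3, Chac1, Sesn2, Asns, Hspa5, Dnajb9 and Herpud1, which respond to stress of the endoplasmic reticulum (ER) and to the integrated stress response. They were picked by symbol, with earlier results of these data known. Every one was found among the 18193 mouse genes measured, and 22 of the 34945 probe sets with exactly 1 gene symbol belonged to them. Where a gene had several probe sets, the one with the highest mean over the 44 arrays stood for it and the others served as a check. RNA came from B6C3F1 mice, a hybrid strain, and was taken from their liver, spleen or bone marrow after they had received 2-butoxyethanol (2BE), a glycol ether solvent known to lyse red blood cells in rodents through its metabolite butoxyacetic acid, or vehicle. The sample titles name the arms 2BE and vehicle, whereas the treatment field calls them reduced oxygen and control, and the groups follow the titles. The sources used here give no dose, route, age or sex, and no genetic change. There were 4 2BE and 3 vehicle arrays of liver taken at 4 h and 4 of each arm of spleen at that time. After 7 d the liver had 5 2BE and 4 vehicle arrays, and spleen and bone marrow had 5 of each arm. Per the design text, liver was sampled from the left lateral lobe, spleen as part of a cross-section and marrow from the right humerus, so each array measured a mixture of cell types. All mice were anaesthetised with ketamine and acepromazine before they were killed. The labels do not say outright that each array is a separate animal, so the tests measure the spread between these arrays.

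Cells that make too much unfolded protein in the ER activate the sensors PERK (Eif2ak3), IRE1 (Ern1) and ATF6. PERK, and with it the haem-regulated kinase HRI (Eif2ak1), the amino acid sensor GCN2 (Eif2ak4) and the double-stranded RNA sensor PKR (Eif2ak2), phosphorylates the translation factor eIF2alpha, which lowers most protein synthesis but raises translation of ATF4. ATF4 then turns on genes of amino acid supply and redox balance, together with the stress factor CHOP, whereas spliced XBP1 and cleaved ATF6 turn on chaperones and the machinery that removes misfolded proteins from the ER. In blood-forming tissue HRI is known for matching globin synthesis to haem in red cell precursors, and XBP1 is known for the secretory programme of plasma cells.

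The promoters of 4 of the genes are shown because they hold the short motifs through which these pathways are known to act. The 250 bases before the RefSeq start of each gene (mouse build GRCm38.p6) are written 5′ to 3′ on the gene's strand, with matches in capitals. In Asns (chr6:7693210-7693459, minus strand) and Chac1 (chr2:119350992-119351241, plus strand) the capitals mark the C/EBP-ATF composite motif TGATGNAA or its reverse complement. In Hspa5 (chr2:34771840-34772089, plus strand) they mark the ER stress response element CCAAT, 9 free bases and CCACG. In Herpud1 (chr8:94386179-94386428, plus strand) they mark first the reverse complement of TGATGNAA and then the second ER stress response element, ATTGG, 1 free base and CCACG.
Asns: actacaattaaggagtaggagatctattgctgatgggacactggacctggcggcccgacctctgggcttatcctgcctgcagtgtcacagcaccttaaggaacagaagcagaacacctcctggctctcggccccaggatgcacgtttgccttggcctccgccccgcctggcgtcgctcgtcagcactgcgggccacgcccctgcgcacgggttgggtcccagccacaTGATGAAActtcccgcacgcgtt
Chac1: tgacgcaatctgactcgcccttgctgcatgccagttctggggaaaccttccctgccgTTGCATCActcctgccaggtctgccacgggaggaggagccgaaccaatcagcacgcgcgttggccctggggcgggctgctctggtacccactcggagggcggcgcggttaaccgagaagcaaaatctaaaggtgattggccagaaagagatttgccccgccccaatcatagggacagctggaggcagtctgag
Hspa5: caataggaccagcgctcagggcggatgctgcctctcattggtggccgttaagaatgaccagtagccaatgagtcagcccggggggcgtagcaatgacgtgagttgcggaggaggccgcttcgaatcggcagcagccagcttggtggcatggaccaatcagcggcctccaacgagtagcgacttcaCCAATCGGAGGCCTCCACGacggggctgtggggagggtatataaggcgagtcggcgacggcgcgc
Herpud1: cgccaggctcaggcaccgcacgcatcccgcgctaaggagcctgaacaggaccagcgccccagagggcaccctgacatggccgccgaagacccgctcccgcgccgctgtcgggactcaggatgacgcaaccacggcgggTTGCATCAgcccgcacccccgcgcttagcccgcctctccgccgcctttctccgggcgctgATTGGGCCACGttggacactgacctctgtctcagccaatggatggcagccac
The 3 motifs were searched on both strands in the window from 250 bases before to 50 bases after the start, and all 10 genes had 1 such window. TGATGNAA lay at positions -23 to -16 in Asns, -193 to -186 in Chac1, -112 to -105 in Herpud1 and 15 to 22 after the start in Trib3, counted from the start site. The element of Hspa5 lay at -65 to -47 and that of Herpud1 at -52 to -42, and no matches overlapped. Of all 32851 RefSeq windows, 3.97% held TGATGNAA, 0.119% held the ER stress response element and 0.0365% held the second one. These letters were not in the windows of Atf4, Ddit3, Xbp1, Sesn2 and Dnajb9, which says nothing of sites elsewhere or in other spellings.

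Levels are given as intensity per probe set. Differences are log2 fold changes, 2BE over vehicle, computed on log2(intensity + 1) and followed by limma's standard error (SE). For liver and spleen the SE and p draw on the spread of all groups of that tissue at both times. The n given counts only the arrays compared. Changed means an adjusted p under 0.05 (limma, Benjamini-Hochberg over all 18193 genes). The median intensity of an array was 41.2 to 52.3 in liver but 109 to 112 in the later spleen set. The 5 tissue and time sets may therefore have been normalised separately. Levels were set side by side only within a set, except in the check of tissue labels below. That check spans sets and is thus rough. The number of arrays limits the precision. The tissues matched their labels by hepatocyte and neutrophil genes. The summed intensity of 5 hepatocyte genes was at least 132502 in liver and at most 3087 in the other tissues. That of 5 neutrophil genes was at least 133255 in marrow and at most 96659 in spleen. The sum of 4 B cell genes did not tell spleen (at least 4513) from vehicle marrow (5561 to 7065). Vehicle replicate 3 of the spleen at 4 h stood apart most, since its root mean square distance from the other vehicle arrays was 0.341 on the log2 scale and that of the other vehicle arrays 0.180 to 0.261. Liver vehicle replicate 3 at 4 h was at 0.288, with the others of its group at 0.201 and 0.226. Spleen 2BE replicates 2 and 5 at 7 d were at 0.266 and 0.273, with the others at 0.136 to 0.169.

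In the spleen at 7 d all 10 genes changed, and they did so in opposite directions. Atf4, Ddit3, Trib3, Chac1, Sesn2 and Asns, grouped here as the ATF4 branch, were higher with 2BE. Xbp1, Hspa5, Dnajb9 and Herpud1, grouped here as the ER folding and clearance branch, were lower. The lists that order the genes below hold Atf4, Ddit3 and Xbp1 together, so the match of branch and direction is not a test. The split is not clean, since Herpud1 also holds the C/EBP-ATF motif. Of 11 other ATF4-linked genes, 2 were higher and 5 lower in that spleen set. The marrow at 7 d had 5 genes higher and 2 lower, with smaller differences, and the liver at 4 h had 1 higher. No member was called in the spleen at 4 h or in the liver at 7 d by limma. There 0 higher and 2 lower, and 1 higher and 1 lower, had an unadjusted p under 0.05. The share of all genes at that unadjusted threshold is not given, so these counts have no background. Of all genes 64.4% were called in the spleen at 7 d, 20.1% in the marrow, 4.51% in the liver at 4 h, 5.16% in the spleen at 4 h and 0.748% in the liver at 7 d. The median log2 fold change of the members was 0.38 in the spleen at 7 d, against 0.051 over all genes, and 0.22 in the marrow, against 0.0067 over all genes. Since the members moved both ways in those tissues, such a median describes neither branch.

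**Figure D1:**
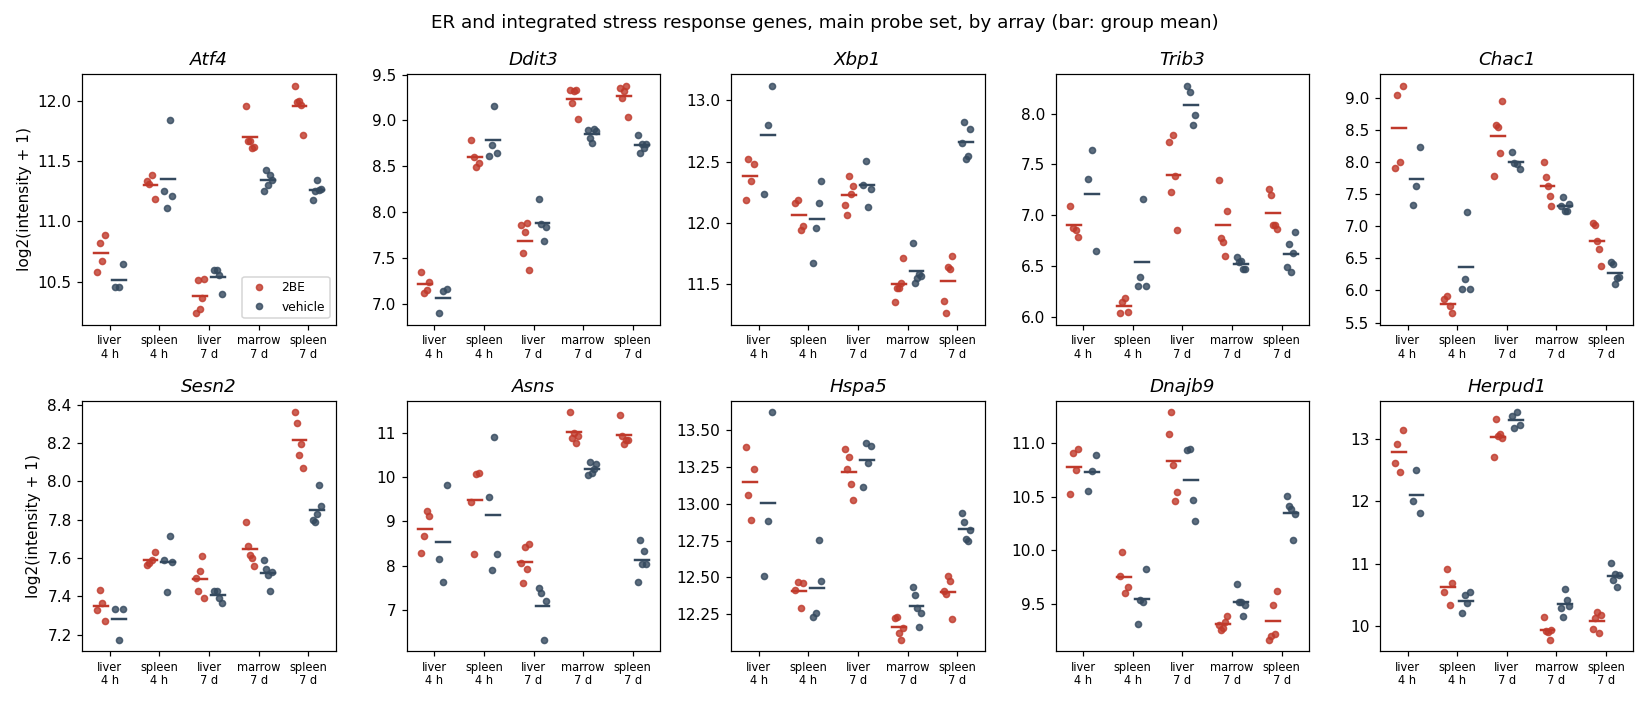
Intensity of the 10 genes on each of the 44 arrays as log2(intensity + 1), 1 panel per gene, with 2BE arrays left of vehicle arrays in each tissue and time and bars at the group means. The arms of Asns, Atf4, Xbp1 and Dnajb9 do not overlap in the spleen at 7 d, whereas those of Chac1 do.

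Among the transcription factor genes, Atf4 encodes the factor translated when eIF2alpha is phosphorylated. Its intensity in the spleen at 7 d was 4464, 4054, 4076, 4002 and 3354 in 2BE spleens, against 2309.9, 2445, 2589.6, 2453 and 2468 in vehicle spleens. The arms did not overlap, and the 2BE arrays were all above the vehicle arrays. Atf4 rose 1.62-fold there (0.70 ± 0.107, adjusted p = 1.85e-05, n = 5 and 5), and its other 2 probe sets were at 0.43 and 0.31, both called higher. The second of these was dim, with means of 62.5 with 2BE and 50.2 with vehicle, below the median of all probe sets. In the marrow its intensity was 3959, 3256, 3245, 3118 and 3131 in 2BE marrows, against 2432, 2757, 2523, 2671 and 2594 in vehicle marrows. The 2BE arrays were again all above the vehicle arrays, with replicate 1 the highest of them. The rise was 1.28-fold (0.36 ± 0.068, adjusted p = 0.00211, n = 5 and 5). Its other marrow probe sets were at 0.85, also called, and, for the dim one, at 0.06, which was not called (means of 58.9 with 2BE and 56.6 with vehicle).

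Ddit3 encodes CHOP, a stress factor known to promote cell death under lasting ER stress. Its spleen intensity at 7 d was 652, 606, 638, 666 and 524 in 2BE spleens, against 456, 399.6, 428, 415 and 427 in vehicle spleens. Every 2BE array exceeded every vehicle array. Ddit3 rose 1.45-fold (0.53 ± 0.095, adjusted p = 8.71e-05). In the marrow it stood at 645, 585, 638, 644 and 517 in 2BE marrows, against 475, 449, 431, 477 and 471 in vehicle marrows. There too all 2BE arrays were above all vehicle arrays, and the rise was 1.31-fold (0.39 ± 0.067, adjusted p = 0.000934). The second Ddit3 probe set was also higher in the spleen (0.58) but was not called in the marrow (0.14, adjusted p = 0.225).

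Xbp1, whose IRE1-spliced form encodes the activator of ER folding genes, went the other way in the spleen at 7 d. Its intensity was 2635, 2458, 3184, 3157 and 3391 in 2BE spleens, against 6422, 7229.9, 5858, 5985 and 6978 in vehicle spleens. The highest 2BE array lay well below the lowest vehicle array. Vehicle over 2BE was 2.20-fold (-1.14 ± 0.114, adjusted p = 1.77e-07), and the other 3 probe sets were also lower, at -1.24, -0.996 and -0.77. In the marrow Xbp1 was at 2614, 2841, 2829, 2912 and 3349.6 in 2BE marrows, against 3652, 2922, 2993, 3059 and 3026 in vehicle marrows. The arms overlapped, with vehicle replicate 1 the highest array, and the difference did not pass the test (-0.11 ± 0.075, adjusted p = 0.362). One of its other marrow probe sets was called lower, at -0.22 (adjusted p = 0.0154). These arrays do not tell spliced from unspliced Xbp1.

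Of the ATF4 and CHOP targets, Asns, which encodes the asparagine-making enzyme asparagine synthetase, had the largest difference among the 10 genes. Asns intensity in the spleen at 7 d was 2695, 1929, 1715, 1830.0 and 1812 in 2BE spleens, against 198, 381, 263, 321 and 259.8 in vehicle spleens. The arms were far apart, and 2BE replicate 1 was the highest array. Asns rose 7.06-fold (2.82 ± 0.433, adjusted p = 1.74e-05), which ranked 73 of 18193 genes by absolute log2 fold change in that comparison. Marrow intensity of Asns was 2821, 1893, 2026, 1737 and 1934 in 2BE marrows, against 1047, 1299, 1084, 1161 and 1255 in vehicle marrows. All 2BE arrays lay above all vehicle arrays, and the rise was 1.76-fold (0.82 ± 0.110, adjusted p = 0.00017), ranked 151. The second Asns probe set was at 2.87 in the spleen and 1.05 in the marrow, both called.

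Trib3 encodes a pseudokinase that is induced by CHOP and ATF4 and restrains ATF4. Its spleen intensity at 7 d was 152, 146, 119, 118 and 115 in 2BE spleens, against 88.7, 104, 86.0, 98.0 and 113 in vehicle spleens. The lowest 2BE array was just above the highest vehicle array. Trib3 rose 1.32-fold (0.40 ± 0.137, adjusted p = 0.0157), while its second probe set, at 0.35, was not called (adjusted p = 0.101). In the marrow it was at 162, 109, 106, 95.9 and 130.4 in 2BE marrows, against 95.2, 92.1, 92.6, 87.4 and 87.6 in vehicle marrows. The arms narrowly did not overlap, and 2BE replicate 1 was the highest. The marrow rise was 1.30-fold (0.38 ± 0.110, adjusted p = 0.0265). It was not called without vehicle replicate 4 (adjusted p = 0.0579), vehicle replicate 5 (adjusted p = 0.0582) or 2BE replicate 5 (adjusted p = 0.0558).

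Chac1 encodes an enzyme that breaks down glutathione and is a known target of ATF4. Spleen intensity of Chac1 at 7 d was 132, 129, 108, 99.3 and 82.5 in 2BE spleens, against 86.2, 84.6, 67.4, 72.0 and 72.7 in vehicle spleens. The arms overlapped, since the lowest 2BE array was under 2 vehicle arrays. Chac1 rose 1.42-fold (0.50 ± 0.183, adjusted p = 0.022), a call lost without vehicle replicate 3 (adjusted p = 0.0515), 2BE replicate 1 (0.0609) or 2BE replicate 2 (0.0597). Its marrow intensity was 255, 216, 197, 176 and 159 in 2BE marrows, against 159, 174, 149.6, 151 and 163 in vehicle marrows. The arms overlapped there as well. The rise was 1.24-fold (0.31 ± 0.103, adjusted p = 0.0444), and leaving out any of 7 of the 10 marrow arrays (vehicle replicate 1, 3, 4 or 5, or 2BE replicate 1, 2 or 3) gave adjusted p-values of 0.0714 to 0.0997.

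Sesn2 encodes sestrin 2, a stress-induced inhibitor of mTORC1 signalling. Its spleen intensity at 7 d was 328, 315, 281, 292 and 268 in 2BE spleens, against 222, 219.6, 226, 251 and 233 in vehicle spleens. The arms did not overlap. Sesn2 rose 1.29-fold (0.36 ± 0.066, adjusted p = 0.000118), and its second probe set was also higher (0.55). In the marrow, at 219.7, 202, 195, 193 and 187 in 2BE marrows, against 192, 186, 181, 171 and 183 in vehicle marrows, the arms overlapped. The marrow difference of 0.13 ± 0.055 did not pass (adjusted p = 0.132).

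The ER chaperone and clearance genes were lower in the spleen at 7 d. Hspa5 encodes BiP, the main ER chaperone and a restraint on the ER stress sensors. Its intensity was 5438, 5367, 5843, 5702 and 4769.8 in 2BE spleens, against 7845, 7504, 6949, 6887 and 7242 in vehicle spleens. All 2BE arrays were below all vehicle arrays. Vehicle over 2BE was 1.34-fold (-0.43 ± 0.087, adjusted p = 0.000337). One of its other probe sets was also lower (-0.47), but the third was higher with 2BE, with means of 1181 with 2BE and 971 with vehicle (0.27 ± 0.099, adjusted p = 0.0214), so the probe sets of Hspa5 disagreed in sign. In the marrow Hspa5 was at 4779, 4798, 4461, 4322 and 4557 in 2BE marrows, against 5535, 5321, 5005, 4576 and 4896 in vehicle marrows. The arms overlapped, and the difference of -0.14 ± 0.060 did not pass (adjusted p = 0.112).

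Dnajb9, a co-chaperone of BiP that restrains IRE1, is a known target of spliced XBP1. Its spleen intensity at 7 d was 574, 586, 718, 594 and 784 in 2BE spleens, against 1449, 1360.3, 1335, 1095 and 1296 in vehicle spleens. The arms were apart, with every 2BE array below every vehicle array. Vehicle over 2BE was 2.01-fold (-1.01 ± 0.110, adjusted p = 3.85e-07). In the marrow Dnajb9 was at 633, 612, 619, 643 and 669.9 in 2BE marrows, against 824, 732, 733, 668 and 718 in vehicle marrows. The highest 2BE array lay slightly above the lowest vehicle array. The marrow difference of -0.21 ± 0.059 was called (adjusted p = 0.0228), but not without vehicle replicate 1 (adjusted p = 0.0508) or 2BE replicate 3 (adjusted p = 0.0515).

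Herpud1 encodes a membrane protein of the complex that removes misfolded proteins from the ER. At 7 d Herpud1 in the spleen was at 994, 1124, 1201, 942 and 1153 in 2BE spleens, against 2068, 1713, 1816, 1579 and 1803 in vehicle spleens. The arms did not overlap. Vehicle over 2BE was 1.66-fold (-0.73 ± 0.103, adjusted p = 7.03e-06). In the marrow its intensity was 1130.5, 972, 957, 879 and 975 in 2BE marrows, against 1248, 1135, 1547, 1363 and 1273 in vehicle marrows. The highest 2BE array was marginally below the lowest vehicle array, and vehicle over 2BE was 1.33-fold (-0.41 ± 0.083, adjusted p = 0.00296). The second probe set was lower in both tissues, at -0.46 in the spleen and -0.39 in the marrow.

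In all, the arms of 5 higher and 4 lower members did not overlap in the spleen at 7 d, where 20% and 26.7% of all genes were so placed. In the marrow 4 higher and 1 lower member had arms apart, against 7.55% and 8.45% of all genes. Of the members called, the 6 higher in the spleen compare with 32.4% of all genes called higher and the 4 lower with 32% called lower, so changing as such was common there. In the marrow the 5 called higher compare with 9.4% of all genes and the 2 called lower with 10.7%. At least 2-fold differences among the members were found in the spleen at 7 d for Asns, Xbp1 and Dnajb9 and in no other comparison.

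**Figure D2:**
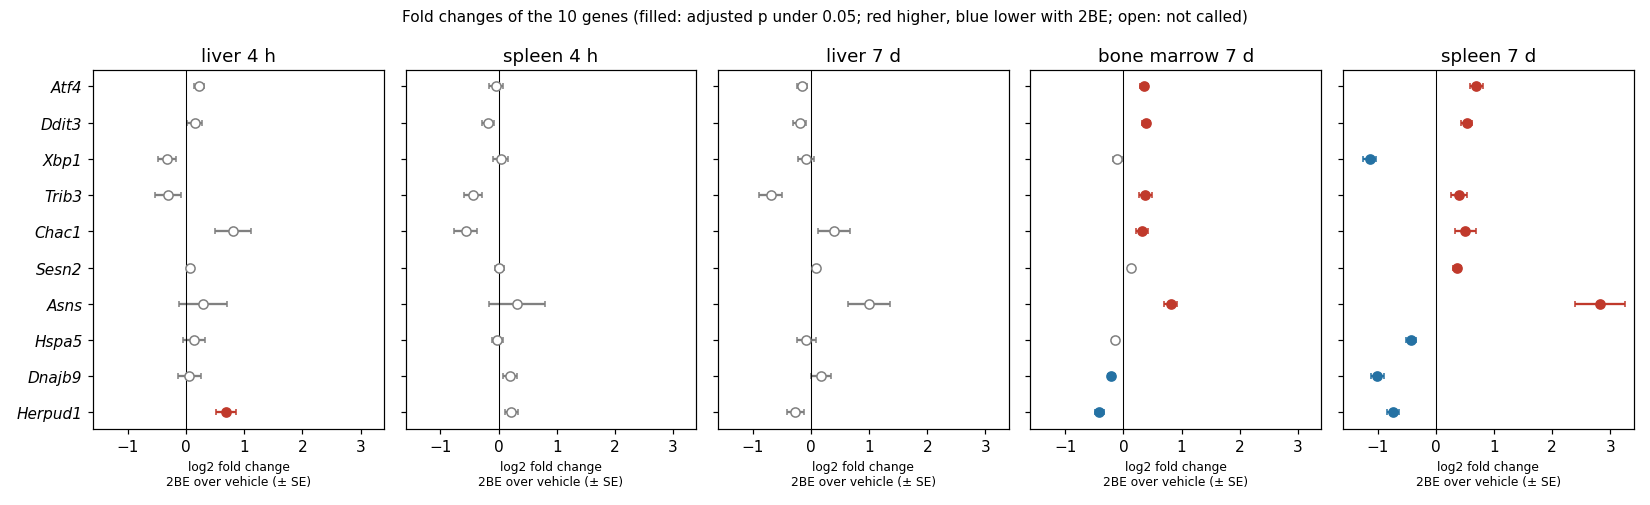
Log2 fold change of 2BE over vehicle with its standard error for the 10 genes in each of the 5 comparisons, filled where the adjusted p was under 0.05. The spleen at 7 d runs from 2.82 for Asns to -1.14 for Xbp1, and 1 gene, Herpud1, was called in the liver at 4 h.

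In the liver at 4 h, Herpud1 was the 1 member called. Its intensity was 6299.8, 7789.9, 5706 and 9044 in 2BE livers, against 4097, 5788 and 3588 in vehicle livers. The arms overlapped at 1 array each, since 2BE replicate 3 was below vehicle replicate 2. Herpud1 was 1.61-fold higher (0.69 ± 0.171, adjusted p = 0.0288, n = 4 and 3), where 3.24% of all genes were called higher. The replicate numbers were taken to pair these arrays. With the number as a block, 2BE replicate 4 had no vehicle partner and did not enter the difference. That difference was 0.57, the same as without that array, with an adjusted p of 0.0554, so the call was lost. It was also lost without vehicle replicate 1 (adjusted p = 0.108), vehicle replicate 3 (0.122), 2BE replicate 2 (0.0659) or 2BE replicate 4 (0.0914), and its second probe set, at 0.62, did not pass (adjusted p = 0.0666).

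The other 9 members did not pass in the liver at 4 h. Chac1 stood at 239, 526, 256 and 585 in 2BE livers, against 159.8, 197 and 302 in vehicle livers. The arms overlapped through vehicle replicate 3, and the difference of 0.80 ± 0.314 had an adjusted p of 0.178. Asns was at 312, 404, 599 and 552 in 2BE livers, against 284, 197 and 904 in vehicle livers. Its highest array was vehicle replicate 3, and the difference was 0.29 ± 0.407 (adjusted p = 0.796) with that array and 0.93 without it. Xbp1 was at 4666, 5880.4, 5201 and 5709.7 in 2BE livers, against 4814, 7122 and 8897 in vehicle livers. Its arms overlapped, and the difference of -0.33 ± 0.154 (adjusted p = 0.27), with 1 array left out at a time, passed only without vehicle replicate 1 (-0.58, adjusted p = 0.0225). Hspa5 ranged over 7602 to 10699.7 in 2BE livers and 5830.0 to 12606 in vehicle livers, Dnajb9 over 1469 to 1964 in 2BE livers and 1504 to 1892 in vehicle livers and Atf4 over 1534 to 1891 in 2BE livers and 1405 to 1599.6 in vehicle livers, with differences of 0.14, 0.05 and 0.22. Differences were 0.15 for Ddit3, -0.31 for Trib3 and 0.07 for Sesn2, and no member had arms apart, against 11.1% of all genes.

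At 4 h Trib3 and Chac1 were the 2 members whose arms did not overlap in the spleen, both with 2BE below vehicle, as were 6.95% of all genes. Trib3 was at 64.6, 69.6, 71.5 and 65.1 in 2BE spleens, against 77.7, 82.7, 142 and 78.0 in vehicle spleens. Vehicle replicate 3 lay far above the rest of its group. The difference was -0.44 ± 0.153 (adjusted p = 0.118), and -0.23 without that array. Chac1 was at 57.3, 59.3, 52.9 and 49.1 in 2BE spleens, against 63.9, 71.3, 149 and 64.4 in vehicle spleens. The same vehicle array was far above the others, and the difference of -0.57 ± 0.204 (adjusted p = 0.128) became -0.28 without it. Asns varied widely in both arms, at 695, 308, 1075 and 1094 in 2BE spleens, against 744, 237, 1908 and 306 in vehicle spleens. Its difference was 0.32 ± 0.484 (adjusted p = 0.777). The remaining differences were -0.05 for Atf4, -0.18 for Ddit3, 0.03 for Xbp1, 0.01 for Sesn2, -0.02 for Hspa5, 0.20 for Dnajb9 and 0.22 for Herpud1, with adjusted p-values of 0.334 or more.

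In the liver at 7 d, Asns was at 264, 194, 339, 241 and 356 in 2BE livers, against 178, 166, 79.6 and 146 in vehicle livers. All 2BE arrays lay above all vehicle arrays, as was so for 3.05% of all genes. The difference was 0.99 ± 0.358, ranked 68 by size, and did not pass (adjusted p = 0.261). Trib3 was at 209, 149, 219.9, 166 and 114 in 2BE livers, against 309, 295, 235 and 252 in vehicle livers. Here all 2BE arrays lay below all vehicle arrays, as for 2.28% of all genes, and the difference of -0.70 ± 0.191 had an adjusted p of 0.112. The direction of Trib3 was thus opposite to that of Asns in this tissue. Chac1, at 219, 381, 375, 281 and 497 in 2BE livers, against 285, 253, 250.1 and 238 in vehicle livers, overlapped between the arms. Its difference was 0.40 ± 0.275 (adjusted p = 0.659). The other 7 members had differences of -0.27 (Herpud1) to 0.18 (Dnajb9), with adjusted p-values of 0.5 or more.

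Responses were then compared with one another by contrasts of the log2 fold changes. In the spleen the response at 7 d minus that at 4 h differed for all 10 genes, by 2.50 ± 0.649 for Asns, 1.07 ± 0.274 for Chac1, 0.84 ± 0.205 for Trib3, 0.75 ± 0.161 for Atf4, 0.71 ± 0.143 for Ddit3 and 0.35 ± 0.0997 for Sesn2. It was lower at 7 d by contrast for Dnajb9 (-1.21 ± 0.165), Xbp1 (-1.17 ± 0.171), Herpud1 (-0.95 ± 0.155) and Hspa5 (-0.41 ± 0.131). These adjusted p-values ran from 1.98e-05 for Dnajb9 to 0.0152 for Hspa5, and 51.3% of all genes differed in this contrast (25.6% higher and 25.6% lower at 7 d). The calls of Atf4 and Hspa5 rested on the probe set, since another Atf4 probe set gave 0.17 (adjusted p = 0.331) and another of Hspa5 gave 0.32 (adjusted p = 0.08). In the liver no member's response differed between times by limma. Of all genes 0.269% did. An unadjusted p under 0.05 was found for 2 members, Atf4 and Herpud1, with no share of all genes given for it. Herpud1 had the largest liver difference in size, at -0.96 ± 0.227 (adjusted p = 0.114).

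Between tissues at 7 d, the spleen response minus the liver response differed for 9 members, where 57% of all genes differed (27.4% higher and 29.6% lower). Asns (1.83 ± 0.274), Trib3 (1.10 ± 0.201), Atf4 (0.85 ± 0.106), Ddit3 (0.73 ± 0.130) and Sesn2 (0.28 ± 0.084) responded more positively in the spleen. Dnajb9 (-1.19 ± 0.191), Xbp1 (-1.05 ± 0.131), Herpud1 (-0.46 ± 0.139) and Hspa5 (-0.35 ± 0.102) responded more negatively. Another Hspa5 probe set was called the other way (0.32, adjusted p = 0.0214), and other probe sets of Hspa5 (-0.32, adjusted p = 0.0853) and Herpud1 (-0.21, adjusted p = 0.2) did not pass. The difference for Chac1 was 0.11 ± 0.220 and did not pass (adjusted p = 0.695). The marrow response minus the spleen response at 7 d differed for 6 members, where 44.9% of all genes differed (25% higher and 19.9% lower). It was lower for Asns (-2.005 ± 0.266), Atf4 (-0.34 ± 0.103) and Sesn2 (-0.24 ± 0.082), and higher for Xbp1 (1.03 ± 0.127), Dnajb9 (0.80 ± 0.185) and Hspa5 (0.28 ± 0.099). For Atf4 and Hspa5 the direction depended on the probe set: another of Atf4 was called higher (0.42 ± 0.140, adjusted p = 0.0146), and another of Hspa5 was called lower (-0.43 ± 0.112, adjusted p = 0.00274). For Ddit3 (-0.14 ± 0.126), Trib3 (-0.02 ± 0.195), Chac1 (-0.19 ± 0.214) and Herpud1 (0.31 ± 0.135) the difference between marrow and spleen did not pass, which does not show that they responded alike. At 4 h no member's response differed between spleen and liver by limma, where 1.78% of all genes differed. An unadjusted p under 0.05 was found for 1 member, Chac1 (-1.37 ± 0.465, adjusted p = 0.192), again with no share of all genes given for it. The labels do not say whether tissues with the same number came from the same mouse.

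The other genes of the 2 branches were read from 6 lists with 73 measured genes besides the members. Of these, 20 were higher and 39 lower in the spleen at 7 d (80.8% called), in the marrow 19 and 13 (43.8%), in the liver at 4 h 12 and 1 (17.8%), in the spleen at 4 h 6 and 1 (9.59%), and in the liver at 7 d 0 and 1 (1.37%). Of all genes 64.4% were called in the spleen at 7 d (32.4% higher and 32% lower) and 20.1% in the marrow (9.4% higher and 10.7% lower), the background to the counts of each list. The share was 4.51% in the liver at 4 h, 5.16% in the spleen at 4 h and 0.748% in the liver at 7 d.

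Among 8 stress sensors and eIF2alpha phosphatase genes in the spleen at 7 d, 4 were higher and 4 lower. Ppp1r15a, which encodes GADD34, the inducible subunit that restores eIF2alpha, had means of 4272 ± 640.1 with 2BE and 723 ± 195 with vehicle (SD), a 6.07-fold rise (2.60 ± 0.226, adjusted p = 5.37e-08). Eif2ak1, the haem-regulated kinase, averaged 3307 ± 360.1 with 2BE and 765 ± 74.3 with vehicle, a 4.31-fold rise (2.11 ± 0.160, adjusted p = 2.99e-08). Eif2ak3, which encodes PERK, was lower (-0.9997 ± 0.107, adjusted p = 3.32e-07), but the median over its probe sets was higher (0.31, adjusted p = 0.00397), so its direction depended on the probe set. In the marrow 3 of the 8 were higher and 1 lower, with Ppp1r15a at 0.47 ± 0.091 (adjusted p = 0.0025) and Eif2ak1 at 0.46 ± 0.075 (adjusted p = 0.000607). Eif2ak3 was at -0.37 in the marrow by its brightest probe set and at 0.05 by the median over probe sets. Neither Eif2ak1 nor Ppp1r15a passed in the liver at 4 h (0.11 and 0.22), the spleen at 4 h (0.05 and -0.07) or the liver at 7 d (-0.02 and 0.10).

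At 7 d more amino acid genes were called higher than lower in the spleen and the marrow. Of 13 genes of amino acid synthesis and transport, 7 rose and 3 fell in the spleen (median log2 fold change 0.45, against 0.051 over all genes), and 7 rose and 1 fell in the marrow (median 0.35, against 0.0067 over all genes). The leucine transporter gene Slc7a5 rose by 2.01 ± 0.226 in the spleen and 0.75 ± 0.080 in the marrow. Pck2, the mitochondrial PEP carboxykinase, was at 1.40 ± 0.174 in the spleen. The mitochondrial folate enzyme gene Mthfd2 was at 1.28 ± 0.256 in the spleen and 0.87 ± 0.124 in the marrow, and Slc3a2, the heavy chain of Slc7a5, was at 0.54 ± 0.075 in the marrow. Of 12 cytosolic aminoacyl-tRNA synthetase genes, whose enzymes charge tRNAs with amino acids, 7 rose and 1 fell in the spleen (median 0.42), and 7 rose and 0 fell in the marrow (median 0.28). Cars, Aars and Mars1, for cysteine, alanine and methionine, were at 1.22 ± 0.151, 1.05 ± 0.166 and 0.65 ± 0.127 in the spleen. In the marrow Aars, Cars and Mars1 were at 0.53 ± 0.083, 0.41 ± 0.090 and 0.35 ± 0.057.

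The ER folding and clearance lists had no gene called higher at 7 d. Of 17 other ER folding genes, 15 fell in the spleen (median log2 fold change -0.60) and 5 in the marrow (median -0.17). The oxidase gene Ero1b, which serves disulphide bond formation, was at -1.45 ± 0.131 in the spleen and -0.46 ± 0.063 in the marrow. The disulphide isomerase gene Pdia4 and the ER stress-inducible gene Creld2 were at -1.22 ± 0.142 and -1.06 ± 0.170 in the spleen, but Pdia4 was at -0.48 by the median over its probe sets. Pdia6, another disulphide isomerase, was at -0.32 ± 0.069 in the marrow, and at -0.14 and not called by the median over its probe sets (adjusted p = 0.168). The 5 marrow calls became 3 without vehicle replicate 1 or without 2BE replicate 4, up to 7 without another array, and 8 with the low-value filter or with the trend and robust options. Of 12 other genes of ER-associated degradation, 11 fell in the spleen (median -0.62) and 4 in the marrow (median -0.14). Selenos, a membrane selenoprotein of the clearance complex, was at -1.27 ± 0.091 in the spleen, and Edem1, a mannosidase-like protein that marks misfolded glycoproteins, at -1.14 ± 0.147. Syvn1, the ubiquitin ligase of the complex, was at -0.85 ± 0.104 in the spleen and -0.54 ± 0.063 in the marrow.

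**Figure D3:**
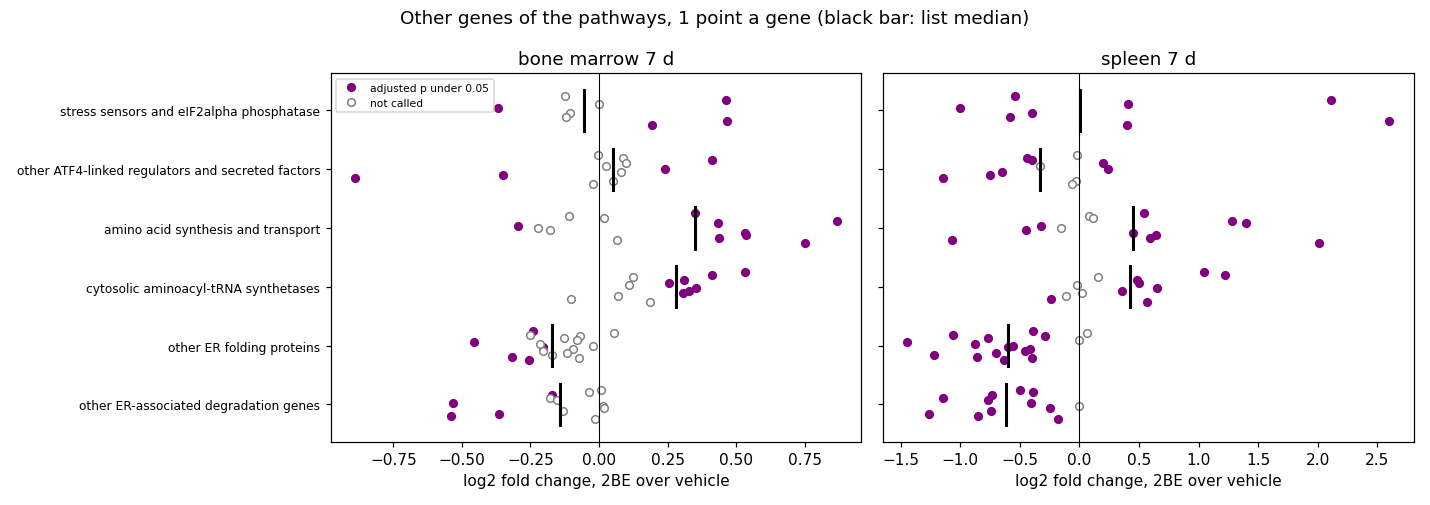
Log2 fold change of 2BE over vehicle for each measured gene of the 6 pathway lists, in the marrow and the spleen at 7 d (panels with their own scales), filled where the adjusted p was under 0.05. In the spleen 15 of 17 ER folding genes and 11 of 12 degradation genes were called lower, while 7 of 12 tRNA synthetase genes were called higher.

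The 11 other ATF4-linked regulators and secreted factors did not move together. In the spleen at 7 d 2 were higher and 5 lower (median -0.34), led by the stress-induced chromatin protein gene Nupr1 (-1.15 ± 0.152), and Nupr1 was also lower in the marrow (-0.89 ± 0.122), where 2 were higher and 2 lower. The 7 calls in the spleen fell to 4 without vehicle replicate 4, 2BE replicate 2 or 2BE replicate 3, each left out alone, and the 4 in the marrow fell to 2 without vehicle replicate 5. At 4 h other genes of the list led. Atf3, a stress-induced repressor, rose in the spleen at 4 h by 2.17 ± 0.159 (adjusted p = 4.51e-08), with Ddit4, an inhibitor of mTORC1, at 1.71 ± 0.386 and the AP-1 repressor gene Jdp2 at 1.61 ± 0.201 (0.79 by the median over its probe sets), and 4 of the 11 were higher there. At 7 d Atf3 did not pass in any tissue, at -0.02 in the spleen, -0.00 in the marrow and 0.01 in the liver.

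In the liver at 4 h the number of other pathway genes called was 13 without the replicate block and 6 with it. The block also leaves 2BE replicate 4 out of the difference. Of the 11 regulators 4 were higher, including Ddit4 (2.70 ± 0.602), Cebpb (1.34 ± 0.205), which encodes a partner of ATF4, and Atf3 (0.64 ± 0.121, adjusted p = 0.00618). With the block Atf3 and Ddit4 were no longer called (adjusted p = 0.0512 and 0.0643), and Ddit4 was not called without vehicle replicate 1 (0.0664) or 2BE replicate 4 (0.0525). The Ddit4 difference was 2.27 both with the block and without 2BE replicate 4. Of the 13 amino acid genes 3 were higher, led by Mthfd2 (0.90 ± 0.195, but 0.51 by the median over its probe sets), which did not pass without vehicle replicate 1 (adjusted p = 0.0606) or vehicle replicate 3 (0.0614). The synthetase genes Lars (0.45 ± 0.074) and Aars (0.39 ± 0.064) were higher. With only the 2 groups compared, Aars (adjusted p = 0.0551), Ddit4 (0.137), Atf3 (0.0776) and Mthfd2 (0.0723) were not called. The other pathway genes called in the liver at 4 h then numbered 2. Ern1, which encodes IRE1, was lower (-0.75 ± 0.183, adjusted p = 0.0275), but not without vehicle replicate 2 or 3 or 2BE replicate 2, 3 or 4, where adjusted p-values were 0.0572 to 0.123. Ern1 was also not called with array weights (adjusted p = 0.0926), with only the 2 groups compared (0.111) or by the median over its probe sets, which was at -0.32 (0.108).

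In the spleen at 4 h the cystine transporter gene Slc7a11 was higher (1.06 ± 0.217, and 0.65 by the median over its probe sets). Syvn1 was lower (-0.44 ± 0.117, adjusted p = 0.0302), a call lost without vehicle replicate 1, 2 or 4 or 2BE replicate 2, 3 or 4 (adjusted p-values of 0.0531 to 0.119). The 7 pathway genes called there became 11 without vehicle replicate 3, the array that stood apart. In the liver at 7 d the hepatic hormone gene Fgf21 was lower (-0.88 ± 0.167, adjusted p = 0.0212), but not without vehicle replicate 1 (adjusted p = 0.0714), vehicle replicate 3 (0.0923), 2BE replicate 4 (0.0583) or 2BE replicate 5 (0.0558).

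Markers of several cell types also changed in the spleen and the marrow at 7 d. All 7 measured erythroid genes were higher in the spleen at 7 d (median log2 fold change 3.00), and their summed intensity was 69109 to 85013 with 2BE against 7845 to 22207 with vehicle. All 6 plasma cell genes were lower (median -1.21), with sums of 11663 to 15101 with 2BE against 23857 to 27409 with vehicle. All 4 B cell genes were lower too (median -1.68), with sums of 4513 to 11870 against 23676 to 27658. In the marrow 6 of 7 erythroid genes were higher (median 0.33), with sums of 58817 to 65456 with 2BE against 44108 to 55603 with vehicle. There 3 of 6 plasma cell genes were lower (median -0.53), with sums of 3261 to 3752 with 2BE against 4954 to 6030 with vehicle, and 4 of 4 B cell genes were lower (median -1.68). Of 5 pancreatic acinar genes, 3 were higher in the spleen at 7 d, with sums of 1365 to 1585 with 2BE against 724 to 802 with vehicle. Of the macrophage genes 4 of 5 were lower in that spleen set, and of the neutrophil genes 0 of 5 were called. Of 5 hepatocyte genes 2 were higher there, and of 2 adipocyte genes 1 was lower. The adipocyte sum there was 137 to 189 with 2BE and 122 to 2314 with vehicle. The part of these cells in the members' results was not tested, and in such bulk samples fewer cells of a type and less RNA per cell cannot be told apart.

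**Figure D4:**
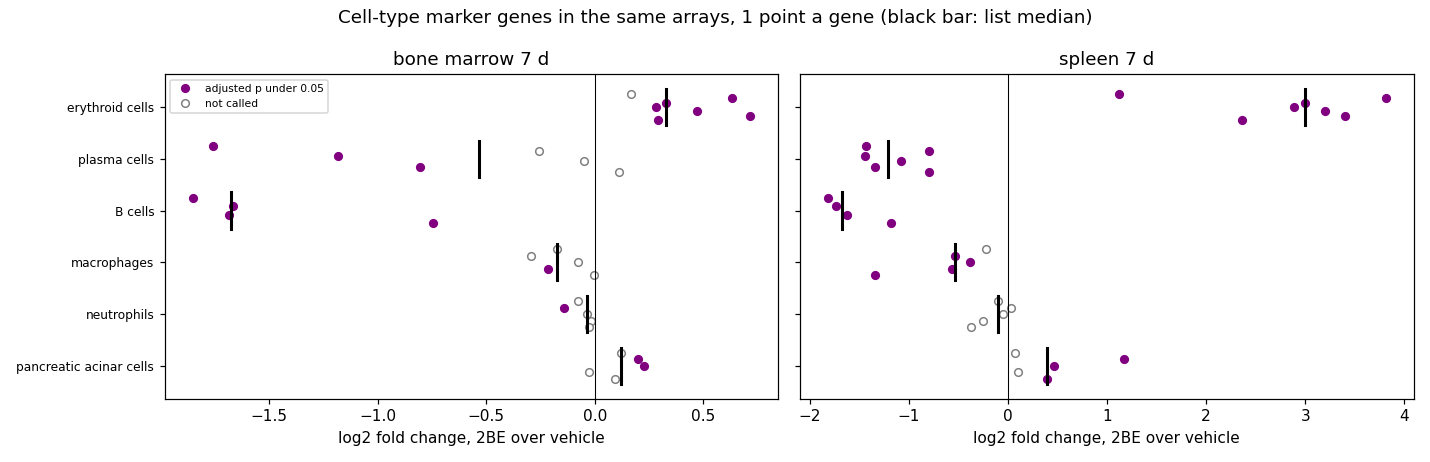
Log2 fold change of 2BE over vehicle for marker genes of erythroid cells, plasma cells, B cells and other cell types in the marrow and the spleen at 7 d (panels with their own scales), black bars at list medians, filled where the adjusted p was under 0.05. In the spleen all 7 erythroid genes lay above 0, and all 6 plasma cell and all 4 B cell genes lay below 0.

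In the spleen at 4 h 0 of 7 erythroid, 1 of 6 plasma cell and 0 of 4 B cell genes were called, and in the liver at 7 d 1 of 7, 0 of 6 and 0 of 4. The neutrophil sum was 23702 to 39251 in 2BE spleens at 4 h and 18631 to 96659 in vehicle spleens at 4 h. In the same spleens the adipocyte sum was 141 to 2863 with 2BE and 129 to 208 with vehicle. The hepatocyte sum was 303 to 3087 with 2BE and 324 to 487 with vehicle.

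Likeness was described for the 3 members with the largest root mean square log2 fold change over the 5 comparisons (Asns, Chac1 and Xbp1), which is not the order by the single largest difference. It was measured as the root mean square difference over the 5 log2 fold changes, as a description with no test. Closest to Asns, whose own root mean square change was 1.40, were Nipa1 (0.222), Brca1 (0.234) and Ccne2 (0.335). Nipa1 had log2 fold changes of 0.13, 0.51 and 0.63 in the liver at 4 h, the spleen at 4 h and the liver at 7 d, and of 0.68 in the marrow and 2.62 in the spleen at 7 d. Closest to Chac1 (0.544) were Gstm3 (0.204), Mpzl2 (0.229) and Ccdc151 (0.265). Xbp1 (0.533) had the nearest neighbours, Capn2 (0.0430), Snx6 (0.0550) and Plxnd1 (0.0663), all of which were at -1.19 to -1.03 in the spleen at 7 d.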

How the data were processed

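Marrow RNA came from a marrow kit and the other RNA from mini columns, and all was labelled with biotin, per the labels' protocols. The authors deposited 1 table of intensity values, made with RMA per the submitters' processing notes. The sources used here name neither its version nor a genome build. The linear values ran from 6.16 to 47797.8, none missing, and log2(intensity + 1) understates the change of dim genes. Of 45101 probe sets, 64 controls, 932 with several symbols and 9160 with none were left out. Genes were tested with limma 3.58.1 in R 4.3.3, by lmFit on the group means of each tissue and eBayes, two-sided, with Benjamini-Hochberg adjustment over 18193 genes, after the procedure was tested on simulated data.

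Response differences were contrasts within a tissue, or in fits over the arrays of 1 time. The members, lists and tests were chosen with earlier results of these data known. The text names all 10 members, at most the 3 called genes of each pathway list with the largest change, and always Eif2ak1, Ppp1r15a and Atf3. Same-numbered arrays of both arms deviated together in the liver at 4 h, where correlations of their deviations from the group means were 0.132 to 0.282 in 3 pairs, so the numbers were taken to pair them there. Elsewhere at least 1 pair fell to -0.0881 or lower, and the numbers were not taken to pair arrays. The labels state no pairing, and the highest correlation, 0.543, was in the spleen at 4 h, so the pairing is uncertain. The block takes an array without a same-numbered partner out of the difference. Alternatives were other pseudocounts (0 and 16), a filter on low values, further quantile normalization, trend and robust options, array weights, other probe sets, the median over probe sets, fits of the 2 groups alone, the replicate block and each array left out. Their use on the pathway lists, and that of other probe sets on response differences, was chosen after seeing the data.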

Additional observations from a re-analysis of the deposited data

Results flagged for a closer look

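In 5 of 90 sets of 4 or 5 arrays of a member, 1 array lay far from the rest of its group by Dixon's criterion. Its critical values are set so that about 1 of 20 sets passes by chance. Atf4 read 3960 on marrow 2BE replicate 1, against 3120 to 3260 on the other 2BE arrays. Xbp1 read 3650 on marrow vehicle replicate 1, against 2920 to 3060 on the others. On spleen vehicle replicate 3 at 4 h Trib3 read 142, against 77.7 to 82.7, and Chac1 read 149, against 63.9 to 71.3. Asns read 2700 on spleen 2BE replicate 1 at 7 d, against 1710 to 1930 on the other 2BE arrays. Spleen vehicle replicate 3 at 4 h was also the array farthest from its group over all genes.

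Of 50 differences between responses, 25 passed the test of the difference itself in limma. Spleen at 7 d minus 4 h gave 0.75 for Atf4, 0.71 for Ddit3, -1.17 for Xbp1, 0.84 for Trib3, 1.07 for Chac1, 0.35 for Sesn2, 2.50 for Asns, -0.41 for Hspa5, -1.21 for Dnajb9 and -0.95 for Herpud1 on the log2 scale. Spleen minus liver at 7 d gave 0.85 for Atf4, 0.73 for Ddit3, -1.05 for Xbp1, 1.10 for Trib3, 0.28 for Sesn2, 1.83 for Asns, -0.35 for Hspa5, -1.19 for Dnajb9 and -0.46 for Herpud1. Marrow minus spleen at 7 d gave -0.34 for Atf4, 1.03 for Xbp1, -0.24 for Sesn2, -2.005 for Asns, 0.28 for Hspa5 and 0.80 for Dnajb9. On another probe set the marrow minus spleen difference turned round for Atf4 (0.42) and Hspa5 (-0.43), and the spleen minus liver difference for Hspa5 (0.32).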

How the results depend on the processing

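Of 948 recomputed values of the 10 members in the 5 comparisons, 357 belonged to the 18 called results, of which 329 kept the call, 27 lost it and 1 turned round. That one was Hspa5 in the spleen at 7 d, at 0.27 on another probe set. Of the 591 values of results not called, 37 changed sign, 588 stayed not called and 3 gained a call. These were Xbp1 in the liver at 4 h without vehicle replicate 1, Xbp1 in the marrow on another probe set and Sesn2 in the marrow after further quantile normalization (0.18, adjusted p = 0.0252). The 1 member called in the liver at 4 h, Herpud1, became 0 with array weights, the median of all probe sets, only the 2 groups compared or the replicate block, and 0 to 1 when 1 array was left out. With 1 array left out the spleen at 7 d had 9 to 10 members called, and the marrow 5 to 7. The liver response difference between times had 0 members called, and 0 to 1 with 1 array left out, Herpud1 without vehicle replicate 2. Other pathway genes called in the liver at 4 h numbered 13, but 8 with the median of all probe sets, 2 with only the 2 groups compared, 6 with the replicate block and 7 to 13 with 1 array left out. In the spleen at 4 h they numbered 7, and 5 to 11 with 1 array left out. In the liver at 7 d there was 1, with 3 under array weights, 2 under the replicate block and 0 to 3 with 1 array left out. Of the called response differences, those on other probe sets kept the call for 10 of 12 probe sets in spleen at 7 d minus 4 h, 9 of 12 in spleen minus liver at 7 d and 7 of 9 in marrow minus spleen, where the other 2 were called the opposite way. Eif2ak3 turned round with the median of all probe sets, to 0.31 in the spleen at 7 d and 0.048 in the marrow. All genes called in the liver at 4 h numbered 821, 176 with only the 2 groups compared and 466 to 1090 with 1 array left out. In the spleen at 4 h there were 938 (508 to 1234 over alternatives), and in the liver at 7 d 136 (96 to 406, and 36 to 250 with 1 array left out). The causes were not tested. In the liver at 4 h, where the numbers were taken to pair the arrays, the replicate block changed no other member's call. Chac1 and Trib3 lay near the median of all probe sets in the spleen at 7 d, and dim signal limits what their values show.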
